A study of Mus musculus with 6 samples.

Results

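Keratins are the intermediate filament proteins of epithelial cells, and they were followed here through 10 genes read in prostate cancer xenografts from mice fed Western diets of high or low glycemic index. The genes were given as a list of Ensembl identifiers, with no threshold on their counts, and are 10 of the 60649 genes in the count table. They were, however, chosen with earlier results of these data known. They comprised the simple epithelial keratins KRT8 (ENSG00000170421.12), KRT18 (ENSG00000111057.11), KRT19 (ENSG00000171345.13) and KRT7 (ENSG00000135480.16). The basal keratins were KRT5 (ENSG00000186081.12), KRT14 (ENSG00000186847.6), KRT15 (ENSG00000171346.16) and KRT17 (ENSG00000128422.17). The stratified epithelial keratins were KRT13 (ENSG00000171401.15) and KRT6A (ENSG00000205420.11).

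The tumors were LAPC-4, a human hormone-sensitive prostate cancer line with wild-type androgen receptor, grown with Matrigel in the flank of male CB.17 scid/scid mice, a strain without functional B and T cells. All mice ate the HiGI diet until their tumors averaged 200 mm3. They were then housed singly and either stayed on it (HiGI group) or moved to the LoGI diet (LoGI group). Each mouse was killed after a short fast once its tumor reached a set larger volume, so that time on the diet was not fixed. Carbohydrate came mainly from sucrose in the HiGI diet and from the amylose-rich starch Hylon-VII in the LoGI diet, in otherwise nearly identical Western diets. RNA was sequenced from 3 HiGI tumors, numbered 16, 20 and 26, and from 3 LoGI tumors, numbered 19, 27 and 28. A single cell line was used, so that the tumors are replicates of the host and its diet and not of the cancer.

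Keratins assemble only as pairs of one type I and one type II protein. KRT8 (type II) and KRT18 (type I) are the founding pair of simple epithelia and mark the luminal, secretory cells of the prostate, while KRT5 (type II) and KRT14 (type I) pair in the basal cells beneath them. KRT19 is a type I keratin with a very short tail and KRT7 a type II keratin of ductal epithelia. KRT15 is a type I keratin of basal cells. KRT17 (type I) and KRT6A (type II) are known as keratins of activated or wounded epithelium and of skin appendages, and KRT17 is also found in prostate basal cells. KRT13 belongs to the upper layers of internal stratified epithelia.

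Libraries held between 18749813 and 21550812 reads on genes. Levels are given as CPM, the reads on a gene relative to the size of its library after TMM scaling (edgeR's trimmed mean method), and can be compared between tumors for one gene but not between genes, because they were not divided by transcript length. A gene was called when it passed both an adjusted p of 0.05 and a minimum fold change of 1 on the log2 scale, in either direction, in edgeR's quasi-likelihood test of every gene with 10 or more reads over the 6 tumors. On the second principal component of all tested genes (13.7% of the variance), HiGI tumors 16 and 26 lay farthest apart, with scores of 20.9 and -20.2, and HiGI tumor 20 lay between them at -3.78. The line's prostate markers other than keratins were not looked up, since the table gives identifiers without symbols. KRT8 and KRT18, the luminal pair, had at least 26557 and 13806 reads in every tumor.

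Among the keratins, KRT17 fell and no other keratin was called. Of the 10, 9 had enough reads to be tested, and KRT13 did not. By edgeR's quasi-likelihood test 1 of the 9 was called lower in LoGI tumors, where 3.38% of all tested genes were, and 0 were called higher, where 0.0733% of all tested genes were. At an unadjusted edgeR p under 0.05, 2 of the 9 were lower and 2 were higher, where 8.98% and 4.33% of all tested genes were. With the adjusted p and minimum fold change again required, the DESeq2 Wald test called 1 of the 9 lower and 0 higher, where it called 3.28% and 0.0636% of the genes for which it gave an adjusted p. The median log2 fold change (LoGI over HiGI) of the 9 keratins was -0.08, beside 0.0034 over all tested genes. The 3 LoGI tumors lay entirely below the 3 HiGI tumors for 1 keratin, KRT17 (10.9% of all tested genes), entirely above them for 1, KRT7 (7.59% of all tested genes), and overlapped with them for the other 7.

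**Figure D1:**
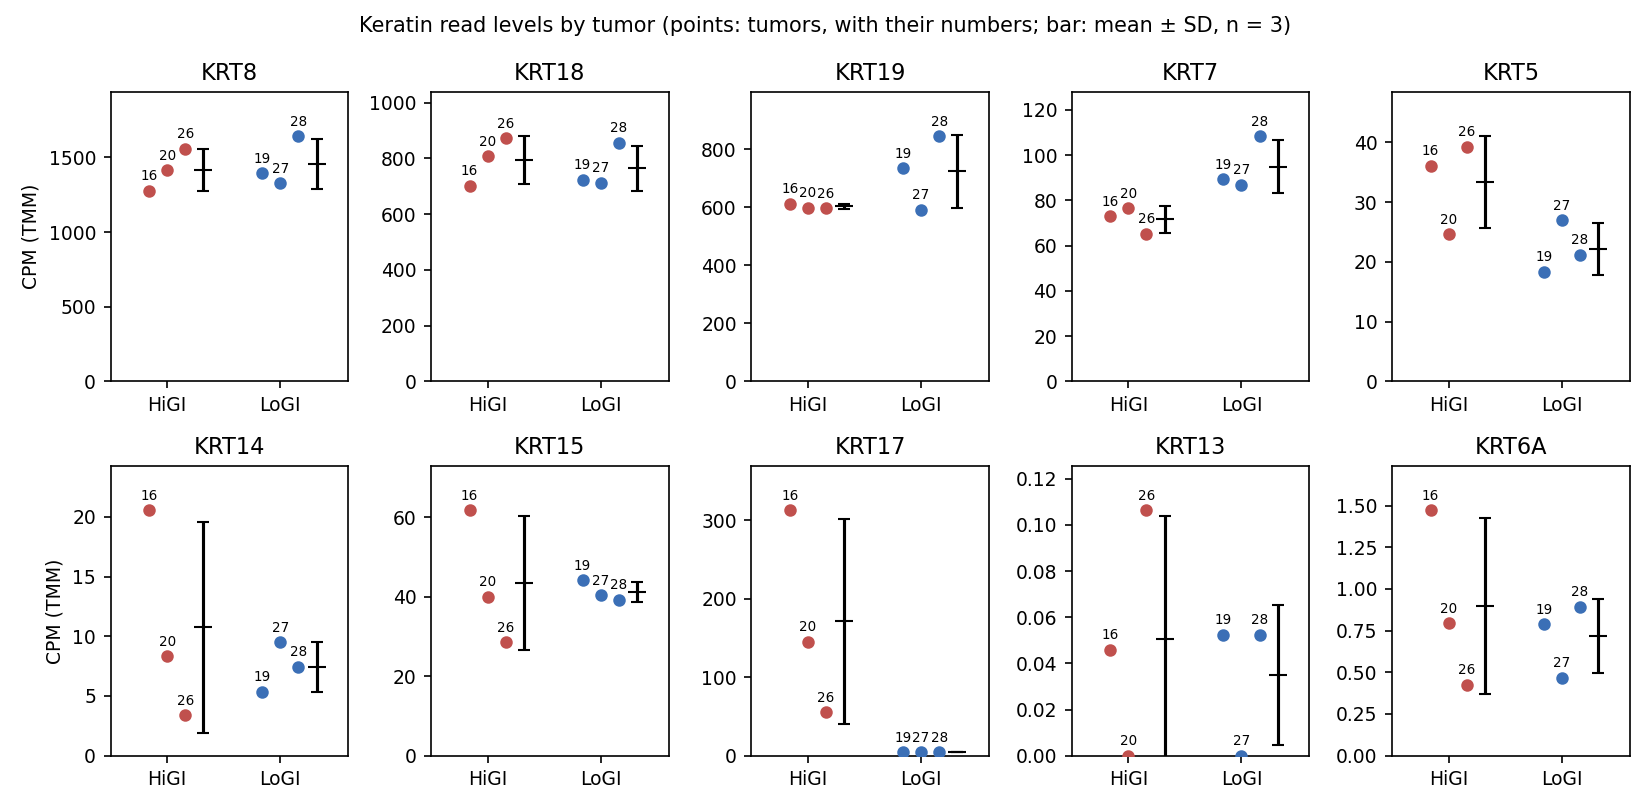
Level of each of the 10 keratins in CPM on TMM-scaled library sizes, with a linear axis from 0 in each panel. Points are tumors with their numbers, HiGI in red and LoGI in blue, and the bar beside them is the mean ± SD of 3 tumors, cut at 0 for KRT13. KRT17 lay between 55.7 and 313 CPM in HiGI tumors and between 4.09 and 4.59 in LoGI tumors, while KRT8 and KRT18 covered similar ranges on both diets.

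KRT17 was read 6803 times in HiGI tumor 16, 2915 in tumor 20 and 1048 in tumor 26. The LoGI counts were 78 for tumor 19, 98 for tumor 27 and 87 for tumor 28. All HiGI tumors were far above all LoGI tumors, and the lowest HiGI tumor was 12.1 times the highest LoGI tumor in CPM. The level was 171 ± 130 CPM (SD, n = 3) in HiGI tumors and 4.42 ± 0.281 CPM (SD, n = 3) in LoGI tumors, a mean 38.8-fold lower in LoGI. On the log2 scale the change was -5.28 (edgeR adjusted p = 2.2e-06), and DESeq2 gave it a standard error of 0.67 and a 95% interval of -6.59 to -3.95. The HiGI tumors set the size of this fold, since they spread over 5.61-fold from lowest to highest while the LoGI tumors spread over 1.12-fold. Without HiGI tumor 16 the means differed 22.7-fold, and without any one of the other tumors they differed between 37.4-fold and 51.8-fold. KRT17 was called in each of the 6 fits that left out one tumor. KRT17 was still read in every LoGI tumor, above the 3 reads taken as the limit of this depth. In whole tumors, fewer cells that make a keratin and less of its RNA in each cell cannot be told apart. Reads mapping only to the mouse genome had been removed, but reads that fit both genomes had not, and keratin sequences are conserved between mouse and human.

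**Figure D2:**
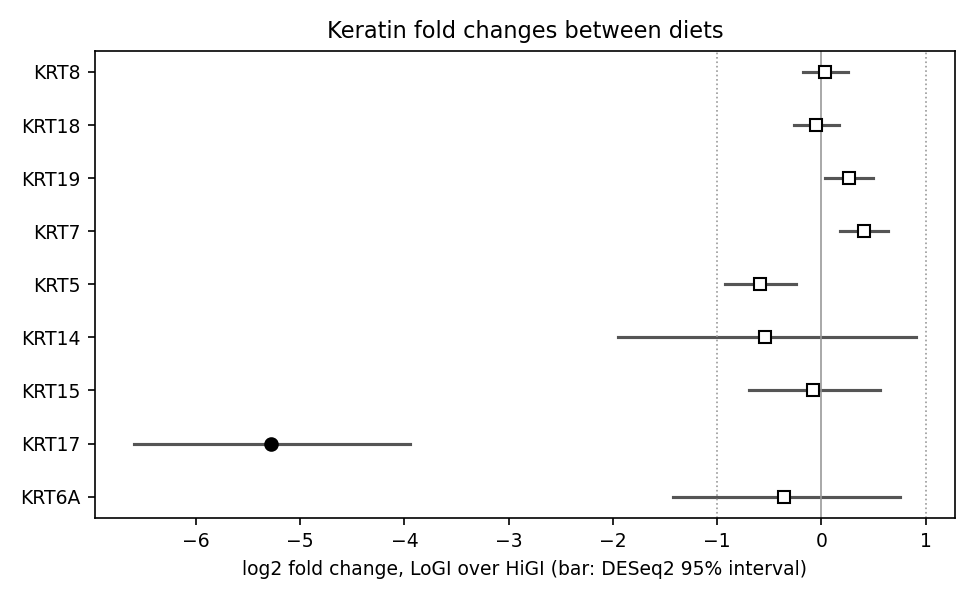
Log2 fold change (LoGI over HiGI) of the 9 keratins tested, as estimated by edgeR (points; filled circle, called; open squares, not called), with the 95% interval from DESeq2 (bars) and the minimum fold change (dotted lines). KRT17 stood at -5.28, and the other 8 lay between -0.59 and 0.40.

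No other basal keratin was called. KRT5, the type II keratin of basal cells, was read 785 times in HiGI tumor 16, 494 in tumor 20 and 738 in tumor 26, against 350 in LoGI tumor 19, 576 in tumor 27 and 403 in tumor 28. The diets overlapped, since LoGI tumor 27 (26.96 CPM) lay above HiGI tumor 20 (24.6 CPM). Its level was 33.3 ± 7.71 CPM (SD, n = 3) in HiGI and 22.2 ± 4.39 CPM (SD, n = 3) in LoGI tumors, which gave a log2 fold change of -0.59. The adjusted p was 0.0639 in edgeR and 0.0198 in the DESeq2 Wald test, whose 95% interval of -0.92 to -0.24 stopped short of the minimum fold change. The side of 0.05 on which KRT5 lay therefore depended on the test, and under edgeR 2 of the 6 fits with one tumor left out gave an adjusted p under 0.05, from 0.00853 to 0.334 over the 6.

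KRT14, the type I partner of KRT5, was read 447 times in HiGI tumor 16, 167 in tumor 20 and 64 in tumor 26, against 102 in LoGI tumor 19, 203 in tumor 27 and 142 in tumor 28. The LoGI tumors all lay inside the range of the HiGI tumors, which held both the highest level (20.5 CPM, tumor 16) and the lowest (3.40 CPM, tumor 26). Its log2 fold change was -0.54 (edgeR adjusted p = 0.686), and the DESeq2 95% interval, -1.96 to 0.90, left room for a fall beyond the minimum fold change. Without HiGI tumor 16 the log2 fold change was 0.34.

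KRT15 showed the same arrangement. It was read 1342 times in HiGI tumor 16, 804 in tumor 20 and 537 in tumor 26, against 841 in LoGI tumor 19, 862 in tumor 27 and 747 in tumor 28. The LoGI levels, 39.2 to 44.1 CPM, sat within the HiGI range of 28.6 to 61.7 CPM. Its log2 fold change was -0.08 (edgeR adjusted p = 0.93, DESeq2 95% interval -0.70 to 0.56), and 0.26 without HiGI tumor 16.

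The stratified keratins were little read. KRT6A, a type II keratin of activated epithelium that often accompanies KRT17, was read 32 times in HiGI tumor 16, 16 in tumor 20 and 8 in tumor 26, against 15 in LoGI tumor 19, 10 in tumor 27 and 17 in tumor 28. The LoGI tumors lay inside the HiGI range. Its log2 fold change was -0.35 (edgeR adjusted p = 0.839, DESeq2 95% interval -1.42 to 0.75), and it was 0.21 without HiGI tumor 16. The interval reached past the minimum fold change on the side of a fall. KRT13 had 1 read in HiGI tumor 16, 0 in tumor 20 and 2 in tumor 26, and 1, 0 and 1 on the LoGI side, never above the 3 reads taken as the limit of this depth, so that no fold is given.

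None of the simple epithelial keratins was called, and the differences of KRT7 and KRT19 were small. KRT8 was read 27788 times in HiGI tumor 16, 28408 in tumor 20 and 29317 in tumor 26, against 26557 in LoGI tumor 19, 28378 in tumor 27 and 31259 in tumor 28. The highest and the second lowest level were both in LoGI tumors. The level was 1417 ± 141 CPM (SD, n = 3) in HiGI and 1454 ± 166 CPM (SD, n = 3) in LoGI tumors, or 0.04 as a log2 fold change (edgeR adjusted p = 0.932). The DESeq2 95% interval, -0.17 to 0.26, held no change as large as the minimum.

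KRT18, the partner of KRT8, was read 15261 times in HiGI tumor 16, 16226 in tumor 20 and 16409 in tumor 26, against 13806 in LoGI tumor 19, 15232 in tumor 27 and 16319 in tumor 28. The LoGI levels, 713 to 857 CPM, lay within the HiGI levels, 702 to 873 CPM. The level was 794 ± 86.3 CPM (SD, n = 3) in HiGI and 765 ± 80.2 CPM (SD, n = 3) in LoGI tumors, or -0.05 as a log2 fold change (edgeR adjusted p = 0.9, DESeq2 95% interval -0.27 to 0.17).

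KRT7 was the one keratin with every LoGI tumor above every HiGI tumor. It was read 1588 times in HiGI tumor 16, 1541 in tumor 20 and 1227 in tumor 26, against 1702 in LoGI tumor 19, 1858 in tumor 27 and 2064 in tumor 28. Its level was 71.6 ± 5.84 CPM (SD, n = 3) in HiGI and 94.9 ± 11.8 CPM (SD, n = 3) in LoGI tumors, a mean 1.32-fold higher in LoGI. The log2 fold change of 0.40 was under the minimum (edgeR adjusted p = 0.0346, DESeq2 95% interval 0.18 to 0.64). With no minimum fold change KRT7 was the 1 keratin higher in LoGI tumors and KRT17 the 1 lower, where 0.367% of all tested genes were higher and 4.36% lower. With each tumor left out in turn the log2 fold change of KRT7 stayed positive, from 0.30 to 0.47, while its edgeR adjusted p ranged from 0.0422 to 0.133 and was 0.05 or more in 5 of the 6 fits.

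KRT19 was read 13322 times in HiGI tumor 16, 12018 in tumor 20 and 11243 in tumor 26, against 13994 in LoGI tumor 19, 12633 in tumor 27 and 16091 in tumor 28. The 3 HiGI tumors were close together, at 598 to 612 CPM, while the LoGI tumors ran from 591 to 845 CPM and reached below them. Its log2 fold change was 0.26 (edgeR adjusted p = 0.266, DESeq2 95% interval 0.04 to 0.50).

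**Figure D3:**
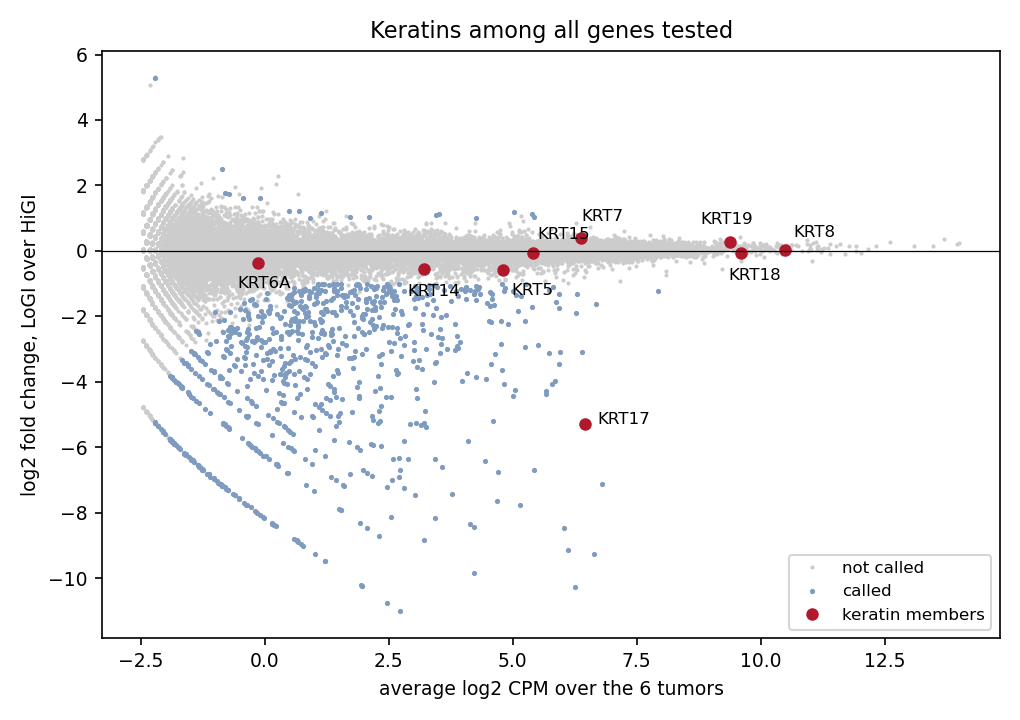
Log2 fold change (LoGI over HiGI, edgeR) against average log2 CPM over the 6 tumors for all 24545 tested genes (grey, not called; blue, called) with the 9 tested keratins in red. KRT17 lay at -5.28 among the better read of the called genes, and the other keratins lay in the band of genes not called.

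Within the HiGI group, KRT14, KRT17, KRT6A and KRT15 differed widely between tumors, and the basal keratin KRT5 did not follow them. HiGI tumor 16 exceeded HiGI tumor 26 in CPM by 6.04-fold for KRT14, 5.61-fold for KRT17, 3.46-fold for KRT6A and 2.16-fold for KRT15. The KRT6A value rests on only 32 reads in tumor 16 and 8 in tumor 26. For KRT8, KRT18, KRT19, KRT7 and KRT5 this ratio lay between 0.804 and 1.12. HiGI tumor 20 lay between the other two for all 4 of the spread-out keratins. That order (16 over 20 over 26) was found for 5 of the 9 tested keratins, KRT19 being the fifth by margins of a few percent at most, and for 17.2% of all tested genes. It is also the order of these tumors on the second principal component and in library size. On the first principal component, tumor 16 lay farthest from the LoGI tumors and tumor 26 nearest to them. What set the order was not tested. This pattern was noticed in the values and is given as a description. These 4 keratins were picked out by their spread in HiGI tumors. In LoGI tumors the highest exceeded the lowest by 1.78-fold for KRT14, 1.12-fold for KRT17, 1.91-fold for KRT6A and 1.12-fold for KRT15, while for KRT19 the spread was 1.43-fold in LoGI against 1.02-fold in HiGI tumors.

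**Figure D4:**
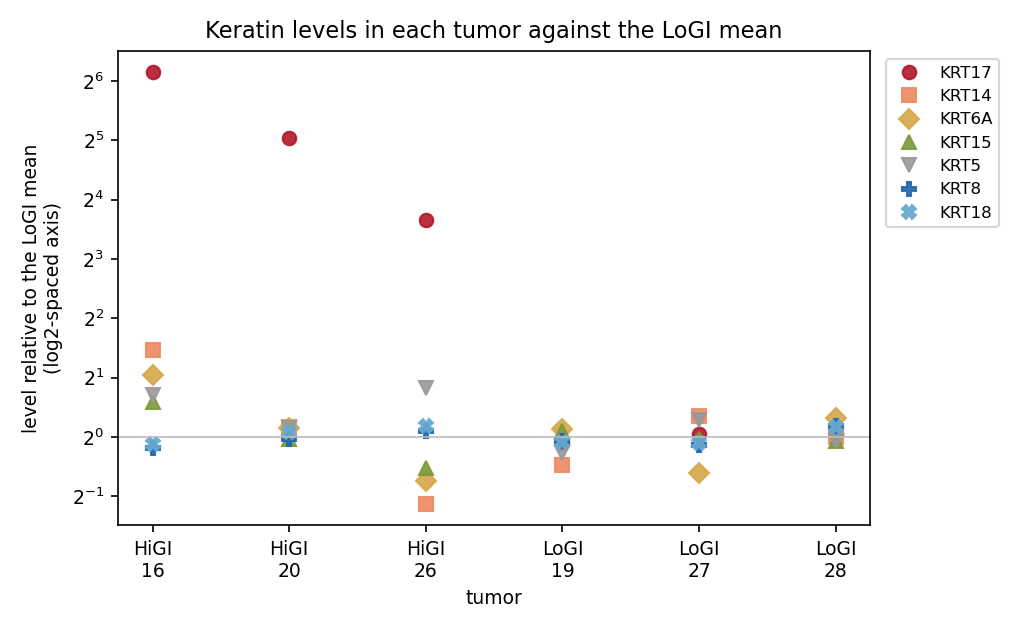
Level of 7 keratins in each tumor divided by that keratin's mean level in the 3 LoGI tumors, on a log2-spaced axis. KRT13, KRT7 and KRT19 are not drawn, and the latter 2 were below their LoGI mean in every HiGI tumor. KRT17 stood far above 1 in every HiGI tumor, KRT14, KRT15 and KRT6A were above it in tumor 16 and below it in tumor 26, and KRT8 and KRT18 stayed near 1 in all 6.

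Ratios of reads between 2 keratins in the same tumor are free of library scaling, and transcript length cancels when one ratio is compared across tumors. There were 17.5, 16.4 and 15.2 KRT17 reads per KRT14 read in HiGI tumors 20, 26 and 16, a mean of 16.3 ± 1.12 (SD, n = 3) despite the 6.04-fold range of KRT14 itself. In LoGI tumors 19, 27 and 28 the ratio was 0.765, 0.483 and 0.613, a mean of 0.620 ± 0.141 (SD, n = 3). KRT17 and KRT14, both type I, thus varied together among the 3 HiGI tumors, at a ratio not seen in any LoGI tumor. This ratio was noticed among those computed and was not tested. KRT17 and KRT14 are close relatives with near-identical stretches and pseudogene copies, and RSEM divides reads that fit several genes, so that how reads were shared between them is uncertain and was not tested. The same holds for KRT6A and its near-identical relatives.

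Reads of the canonical basal pair did not keep one ratio. KRT5 reads per KRT14 read were 1.76, 2.96 and 11.5 in HiGI tumors 16, 20 and 26, and 3.43, 2.84 and 2.84 in LoGI tumors 19, 27 and 28. The high value of HiGI tumor 26 came from its low KRT14 count, with KRT5 near that of tumor 16. Reads of the luminal pair were nearly fixed. KRT8 reads per KRT18 read were 1.82, 1.75 and 1.79 in HiGI tumors 16, 20 and 26 and 1.92, 1.86 and 1.92 in LoGI tumors 19, 27 and 28. The LoGI ratios were all above the HiGI ratios, by a mean of 1.90 ± 0.0329 against 1.79 ± 0.0350 (SD, n = 3 each). This ratio was noticed among 7 computed and was not tested, and with 3 tumors a diet an exact permutation test could not go below p = 0.1.

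The 10 keratins together held 0.320% of the library in HiGI tumor 16, 0.313% in tumor 20 and 0.323% in tumor 26, against 0.302% in LoGI tumor 19, 0.278% in tumor 27 and 0.340% in tumor 28. The total overlapped between diets while the share on the basal keratins did not. The 4 basal keratins held 13.9%, 6.998% and 3.94% of the keratin reads in HiGI tumors 16, 20 and 26, and 2.39%, 2.91% and 2.05% in LoGI tumors 19, 27 and 28. The lowest HiGI share was above the highest LoGI share, with 95% Clopper-Pearson intervals of 3.79% to 4.10% and 2.77% to 3.04%. KRT17 alone made up 10.1%, 4.66% and 1.73% of the keratin reads in the HiGI tumors, and 0.136%, 0.164% and 0.130% in the LoGI tumors. Without KRT17 the basal share was 3.82%, 2.34% and 2.21% in HiGI tumors 16, 20 and 26 against 2.25%, 2.74% and 1.92% in LoGI tumors 19, 27 and 28, and the diets overlapped. These intervals cover counting error only.

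**Figure D5:**
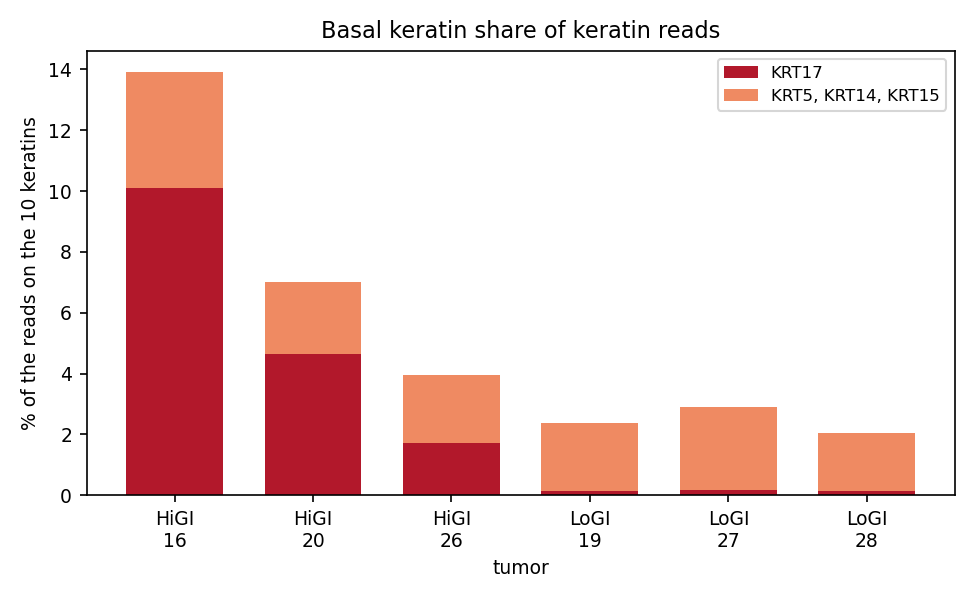
Share of the reads on the 10 keratins that fell on KRT17 (red) and on KRT5, KRT14 and KRT15 together (orange) in each tumor, stacked, as a percentage. KRT17 held 1.73% to 10.1% in HiGI tumors and 0.130% to 0.164% in LoGI tumors, while the orange part covered overlapping ranges.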

How the data were processed

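Tumor RNA was sequenced as stranded 75 bp single-end reads. Reads unique to mouse were removed by the authors with BBMap, and the rest were quantified on the human genome (GRCh38.p13) with STAR and RSEM. The deposited values are whole-number read counts per gene, not normalized, in 6 columns matched to tumors by title (how RSEM estimates became whole is not given in the sources used here). The sample records name mouse as the organism, whereas the gene identifiers are human. Diets came from the treatment label (hgw read as HiGI, lgw as LoGI). No tumor repeated another within sampling noise, since the chi-square per degree of freedom was at least 4.91 within a diet.

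Genes with 10 or more reads over the 6 tumors were tested in R 4.3.3 with edgeR 4.0.16 (TMM, glmQLFit, glmQLFTest, default prior count of 0.125), with Benjamini-Hochberg adjustment across all of them. Standard errors and 95% intervals (normal approximation) came from DESeq2 1.42.0. The edgeR step was tested on simulated data. All 10 keratins were to be named, and they, like the lists and tests, were chosen with earlier results of these data known. Their symbols came with the identifiers. Lists of other keratins, keratin anchors and cell type markers were not used here, because the table pairs no identifier with a symbol, and keratin sequences and transcript lengths were not used here either. Alternatives were other normalizations and filters, a prior count of 2, the DESeq2 Wald test, adjusted p alone, and each tumor left out.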

Additional observations from a re-analysis of the deposited data

How the results depend on the processing

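KRT17 was called lower in LoGI tumors under all 13 alternatives that were run, with log2 fold changes from -5.69 to -4.51 and an adjusted p of at most 0.000108. Of these, adjusted p alone and the prior count of 2 reused the main p-values, so they could not test the p of KRT17. No alternative called another keratin lower, but all except adjusted p alone kept the minimum fold change. KRT5 passed the adjusted p, short of that minimum, in the DESeq2 Wald test and the fit with at least 1 read. It also did so in 2 of the 6 fits with a tumor left out. The number of keratins called higher (0) became 1, KRT7, with no minimum fold change. Over all genes, the number called higher in LoGI tumors (18) became 39 with at least 1 read over the tumors and 90 with no minimum fold change, and ranged from 4 to 26 when each tumor in turn was dropped. The number called lower (829) stayed within 1.5 times, from 678 to 1071. Log2 fold changes of KRT8 and KRT18, close to 0, changed sign in 2 alternatives each, and those of KRT14, KRT15 and KRT6A in 1 each, the fit without HiGI tumor 16. With at least 1 read over the tumors, the edgeR adjusted p of KRT14 was 0.0356 and of KRT5 6.3e-05. With at least 10 reads it was 0.686 and 0.0639. The adjusted p of every other tested keratin was also lower in that looser fit, such as KRT7 (0.00202 against 0.0346) and KRT19 (0.066 against 0.266). The cause was not tested. No paired analysis was possible because the labels give the tumors no shared replicate numbers. KRT13, with at most 2 reads in a tumor, was too little read to be tested.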
